A study of Sus scrofa with 23 samples.

Results

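Genes of blood vessel growth and of the renal endothelium were followed in the kidney cortex of newborn pigs. VEGFA, ANGPT1 and ANGPT2 encode secreted ligands, KDR, FLT1 and TEK encode their receptors, and PECAM1, EMCN, PLVAP and EHD3 are markers of endothelial cells. They were chosen by symbol, and the transcripts of each symbol were summed, which gave 10 of the 26687 genes in the table. The study asked what role the CFTR anion channel has in the metabolism of newborn organs, and here total RNA of cortex taken from a similar place in each kidney was sequenced after removal of ribosomal RNA. The labels give 11 CFTR-/- pigs (CF), 6 CFTR+/- pigs (HET) and 6 CFTR+/+ pigs (WT), all newborn, with no treatment named in the labels. HET and WT together form the 12 non-CF libraries that the study's methods set against CF. Each library is 1 pig bred from heterozygous parents, the disrupted allele of CF and HET pigs is in all cells of the animal, and the labels give no litter.

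The libraries held between 32901281 and 52952273 estimated counts. Estimated counts of CFTR, the disrupted gene, were highest in the libraries labelled CF, at 19.9 ± 3.21 CPM (counts scaled to a common library size; SD, n = 11), against 12.6 ± 2.76 (SD, n = 6) in those labelled HET and 2.26 ± 0.794 (SD, n = 6) in those labelled WT. The transcript was thus more abundant where the gene is labelled as disrupted, and CF, HET and WT name the labels of the libraries throughout. On the second axis of a multidimensional scaling plot, pigs 1 to 6 and 12 to 18 lay between -0.80 and 0.012, and pigs 7 to 11 and 19 to 23 between 0.333 and 0.732. The labels name no batch, so these sets are called the earlier-numbered pigs (6 CF, 3 HET and 4 WT) and the later-numbered pigs (5 CF, 3 HET and 2 WT), and values are also given within each. The library labelled CF1 stood apart: 7 immediate early genes, which many cells switch on within minutes of a stimulus, summed to 929 TPM there (a level scaled for transcript length and library size), to between 48.0 and 79.6 in the other libraries labelled CF and to between 53.8 and 395 in the non-CF libraries. The value of 395 TPM was that of the library labelled WT12. Defining genes of kidney cortex were well expressed, with median levels of 408 TPM for SLC34A1 and 328 TPM for LRP2 of the proximal tubule.

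VEGF-A is made in the kidney largely by podocytes and tubule cells and acts on nearby endothelial cells. KDR (VEGF receptor 2) carries most of its growth signal, whereas FLT1 (VEGF receptor 1) binds VEGF-A tightly with weak kinase activity, and its short secreted forms act as a decoy. Angiopoietin 1, made by cells that surround vessels, activates the endothelial receptor TEK (also called TIE2) and steadies vessels, while angiopoietin 2, stored by endothelial cells, can oppose or weakly mimic it. PECAM1 is a junction protein of all endothelium, EMCN a surface sialomucin of capillaries and veins, PLVAP the protein of the diaphragms in fenestrated peritubular capillaries, and EHD3 a membrane trafficking protein enriched in glomerular endothelium.

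The transcripts of the VEGF genes differ by coding segments that decide which protein is made, so these segments are shown, read from the Sscrofa11.1 genome by the RefSeq annotation. Capitals mark the segment that is present in one transcript and absent from the other, and lower case marks the coding bases that join it, or precede it for FLT1.
VEGFA, heparin-binding exon of 132 bases (chr7:38758048-38758179, plus strand): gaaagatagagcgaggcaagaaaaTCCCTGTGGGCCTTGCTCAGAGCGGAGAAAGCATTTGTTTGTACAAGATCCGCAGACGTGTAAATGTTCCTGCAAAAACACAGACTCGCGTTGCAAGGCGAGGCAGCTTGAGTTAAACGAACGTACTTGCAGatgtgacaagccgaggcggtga
KDR, 12 bases (chr8:41818739-41818750, minus strand): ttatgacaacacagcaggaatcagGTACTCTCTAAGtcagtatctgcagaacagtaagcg
FLT1, last 161 coding bases of short transcript X4 (chr11:5701048-5701208, minus strand): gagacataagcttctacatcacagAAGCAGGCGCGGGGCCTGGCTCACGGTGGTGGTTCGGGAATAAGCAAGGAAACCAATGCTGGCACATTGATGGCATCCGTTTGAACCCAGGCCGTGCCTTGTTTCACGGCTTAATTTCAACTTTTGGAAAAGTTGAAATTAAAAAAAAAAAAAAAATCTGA
The VEGFA exon encodes part of the region by which the longer VEGF-A forms bind heparin. It is in the curated transcript, which encodes 190 residues, and not in the predicted transcript X1, which is annotated with 383 residues. X1 thus also has coding bases that the curated transcript lacks. The 12 bases lengthen KDR from 1356 to 1360 residues in transcript X1. The FLT1 segment replaces the exons downstream of it, so that X4 encodes 604 residues where the full-length transcript X3 encodes 1337.

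Per length, VEGFA had the highest level of the 10 genes, with a median of 88.3 TPM over 23 libraries (65.3 to 128.5), and ANGPT1 the lowest, with 3.56 TPM (2.03 to 6.56). PLVAP followed VEGFA at 60.7 TPM (36.7 to 107) and was below it in 21 of 23 libraries. PECAM1 had a median of 48.4 TPM and KDR of 36.4 TPM, but PLVAP was above PECAM1 in 17 libraries and PECAM1 above KDR in 20, so the spreads of neighbours overlapped. EMCN stood at 31.2 TPM, below KDR in 22 libraries. FLT1 (14.8 TPM) and TEK (14.1 TPM) did not separate, since FLT1 was above TEK in 15 of 23, but both lay under EMCN and above ANGPT2 in all 23 libraries. ANGPT2 (5.27 TPM), EHD3 (4.73 TPM) and ANGPT1 closed the order, with ANGPT2 above EHD3 in 17 libraries and EHD3 above ANGPT1 in 20. FLT1 varied least from pig to pig, with a coefficient of variation of 10.2%, and ANGPT1 most, with 29.6%.

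**Figure D1:**
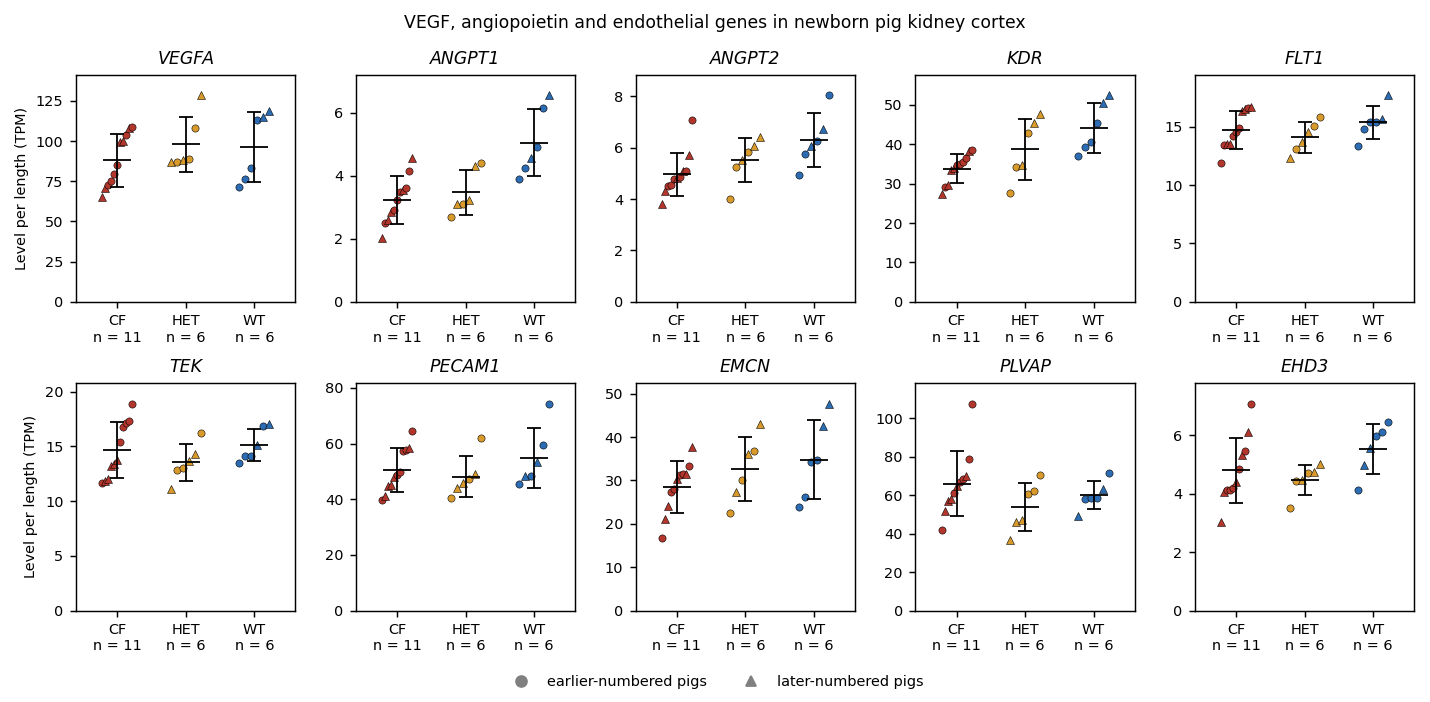
Level per length in TPM (y axis, from 0) of the 10 genes in every library, by genotype label; circles are earlier-numbered and triangles later-numbered pigs, and bars are the mean ± SD. The labels overlap for every gene, with WT highest in ANGPT1 (3 WT pigs above every CF pig) and the single high CF point of PLVAP, at 107 TPM, being CF1.

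Among the ligands, ANGPT1 had the largest difference in level between CF and WT, on the log2 scale. ANGPT1 (gene 397009, chromosome 4 from 29925203 to 30233434) lay between 8.60 and 13.8 CPM in CF (median 11.06), between 9.85 and 15.8 in HET (median 11.7) and between 12.3 and 19.8 in WT (median 15.2). All 11 CF libraries were below the WT median and 8 were below every WT library, whereas the CF and HET ranges overlapped broadly. The log2 fold change of ANGPT1 in CF relative to WT was -0.51 (SE 0.12, 95% interval -0.75 to -0.27), with an unadjusted p of 0.00020 and an adjusted p of 0.0541 by edgeR's quasi-likelihood test, just outside the 0.05 limit. Adjusted p-values passed that limit with DESeq2 (0.00645, where 2.75% of all genes passed), with a filter of 1 CPM in 6 libraries (0.0445, where 0.753% passed), with the numbered set as a term (0.0410, 0.889%) and with upper-quartile scaling (0.0411, 0.664%), and over all 34 alternatives they ranged from 0.00645 to 0.264. Leaving out CF4, CF11, HET13, HET14, WT18 or WT23, 1 at a time, also brought it under the limit (0.0294 to 0.0450), while leaving out any other library gave 0.0528 to 0.134. In that order, 203 of 20956, 72 of 20985, 104 of 20841, 60 of 20853, 34 of 20869 and 194 of 20862 genes passed. With all libraries, 73 of 20921 did. Against the 12 non-CF libraries ANGPT1 was -0.33 (SE 0.11, adjusted p = 0.158), HET against WT was -0.38 (SE 0.13, adjusted p = 0.541), and CF against HET was -0.13 (SE 0.12, adjusted p = 0.753). In these bulk samples, fewer cells of a type and less RNA per cell cannot be told apart.

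ANGPT2 (gene 396730, chromosome 15 from 37544177 to 37600925) lay between 15.4 and 21.5 CPM in CF (median 17.4), between 16.2 and 23.1 in HET (median 20.8) and between 17.8 and 25.0 in WT (median 20.9). Of the CF libraries, 10 of 11 were below the non-CF median, and 3 were below every non-CF library. The log2 fold change of CF against non-CF was -0.23 (SE 0.069, 95% interval -0.37 to -0.090, adjusted p = 0.111), the smallest p of the 10 genes in this comparison, with HET and WT close together (log2 fold change -0.04, SE 0.097). DESeq2 put its adjusted p at 0.0462. The ratio of ANGPT2 to ANGPT1 per length, which describes RNA and not protein, was 1.59 ± 0.317 in CF (SD, n = 11), 1.63 ± 0.381 in HET (SD, n = 6) and 1.26 ± 0.153 in WT (SD, n = 6). Of ANGPT1's TPM, 62.9% ± 5.55 (SD, n = 23) was assigned to transcripts X4 and X5, annotated with 410 and 409 residues, against 498 in the curated transcript.

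VEGFA (gene 397157, chromosome 7 from 38746393 to 38762282) differed less. It lay between 147 and 201 CPM in CF (median 177), between 182 and 218 in HET (median 194) and between 145 and 217 in WT (median 173). WT covered nearly the range of both other labels, and 9 of 11 CF libraries were below every HET library. The log2 fold change was -0.09 for CF against non-CF (SE 0.072, adjusted p = 0.652), -0.00 for CF against WT (SE 0.084, adjusted p = 0.996), 0.17 for HET against WT (SE 0.096, adjusted p = 0.680) and -0.17 for CF against HET (SE 0.084, adjusted p = 0.514). The 95% interval of CF against WT over all libraries, -0.18 to 0.17, spans changes of up to 12.6% upward and 11.5% downward. It does not bound the change within a numbered set. Over all 34 alternatives the value of CF against WT ranged from -0.28 to 0.18, the highest being that of the earlier-numbered pigs alone.

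Of the receptors, KDR (gene 397311, chromosome 8 from 41809116 to 41856379) was lower in CF, without passing the adjusted limit. It lay between 155 and 247 CPM in CF (median 197), between 170 and 265 in HET (median 234) and between 192 and 271 in WT (median 240). Of the CF libraries, 10 of 11 were below the non-CF median, while 5 non-CF libraries were above every CF library. The log2 fold change was -0.26 for CF against non-CF (SE 0.084, 95% interval -0.43 to -0.083, adjusted p = 0.149), -0.29 for CF against WT (SE 0.10, adjusted p = 0.189) and -0.06 for HET against WT (SE 0.12, adjusted p = 0.922).

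FLT1 (gene 396763, chromosome 11 from 5620698 to 5797095) had a wide range in CF, 55.0 to 110 CPM, which enclosed both HET (63.8 to 77.7) and WT (64.8 to 83.1). The highest value was that of CF1, and the log2 fold change of CF against non-CF was 0.05 (SE 0.089, adjusted p = 0.868) with it and -0.02 (SE 0.077) without it. TEK (gene 396729, chromosome 1 from 195938177 to 196052294) lay between 55.1 and 94.7 CPM in CF, between 56.1 and 77.2 in HET and between 56.1 and 73.0 in WT, with 3 CF libraries below and 3 above every non-CF library. Its log2 fold change of CF against non-CF was 0.09 (SE 0.087, adjusted p = 0.728). Per length, FLT1 stood to KDR as 0.441 ± 0.0691 in CF (SD, n = 11), 0.375 ± 0.0702 in HET (SD, n = 6) and 0.352 ± 0.0413 in WT (SD, n = 6).

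None of the 4 endothelial markers had an adjusted p under 0.05 for CF against non-CF. EMCN (gene 100628129, chromosome 8 from 120174091 to 120227971) lay between 43.0 and 78.0 CPM in CF (median 59.7), between 53.0 and 85.4 in HET (median 73.6) and between 51.5 and 93.8 in WT (median 66.3), with 8 of 11 CF libraries below the non-CF median and a log2 fold change of -0.22 (SE 0.11, adjusted p = 0.366). PLVAP (gene 110259322, chromosome 2 from 60324565 to 60344450) lay between 99.8 and 273 CPM in CF (median 132), between 86.9 and 154 in HET (median 119) and between 95.4 and 152 in WT (median 118), and 7 of 11 CF libraries were above the non-CF median. Its log2 fold change was 0.26 (SE 0.14, adjusted p = 0.433). The value of 273 CPM was that of CF1, where the next highest library had 164 CPM, and without CF1 the log2 fold change was 0.12 (SE 0.11, adjusted p = 0.669).

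PECAM1 (gene 396941, chromosome 12 from 14667643 to 14723296) lay between 98.3 and 202 CPM in CF, between 112 and 170 in HET and between 106 and 183 in WT. The labels overlapped fully, and CF differed from non-CF by 0.01 on the log2 scale (SE 0.10, 95% interval -0.20 to 0.23, adjusted p = 0.976). EHD3 (gene 100621933, chromosome 3 from 108103631 to 108135161) lay between 12.8 and 26.7 CPM in CF, between 14.1 and 19.6 in HET and between 13.2 and 23.2 in WT, and its log2 fold change was -0.03 (SE 0.12, 95% interval -0.28 to 0.22, adjusted p = 0.953). CF1 held the highest value of FLT1, PLVAP and PECAM1 and the lowest of EMCN among the 23 libraries. It also held the highest sum of 8 mesangial cell and pericyte genes, 504 TPM against at most 451 elsewhere (the actin gene ACTA2 had the highest level of them, with a median of 144 TPM and at most 335 over all libraries), and of 8 blood and immune cell genes, 1042 TPM against at most 555, a sum made up almost wholly of the hemoglobin gene HBB (1025 TPM). What part these played in its endothelial values was not tested.

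Over the whole table, 20921 genes passed the filter on low counts, all 10 genes among them. No gene of the 10 reached an adjusted p under 0.05 for CF against non-CF, where 0.349% of all tested genes did, and 3 had an unadjusted p under 0.05 (ANGPT1, ANGPT2 and KDR, all lower in CF), where 13.7% of all tested genes did (6.36% lower in CF). For CF against WT the counts were again 0, beside 0.349%, and 3, the same genes, beside 14.1% (6.51% lower in CF). HET against WT gave 0 genes, beside 0.00478%, and ANGPT1 with an unadjusted p under 0.05, beside 7.99%. CF against HET gave 0 genes by edgeR, beside 0% of all tested genes (0.311% by DESeq2), and ANGPT2 and KDR with an unadjusted p under 0.05, beside 9.89%. DESeq2 called 1 of the 10 for CF against non-CF, ANGPT2, beside 2.46% of all genes, and 1 for CF against WT, ANGPT1, beside 2.75%. The median log2 fold change of the 10 was -0.06 for CF against non-CF and -0.06 for CF against WT, beside medians of -0.00052 and -0.0016 over all genes. These comparisons share libraries and are not independent of each other.

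**Figure D2:**
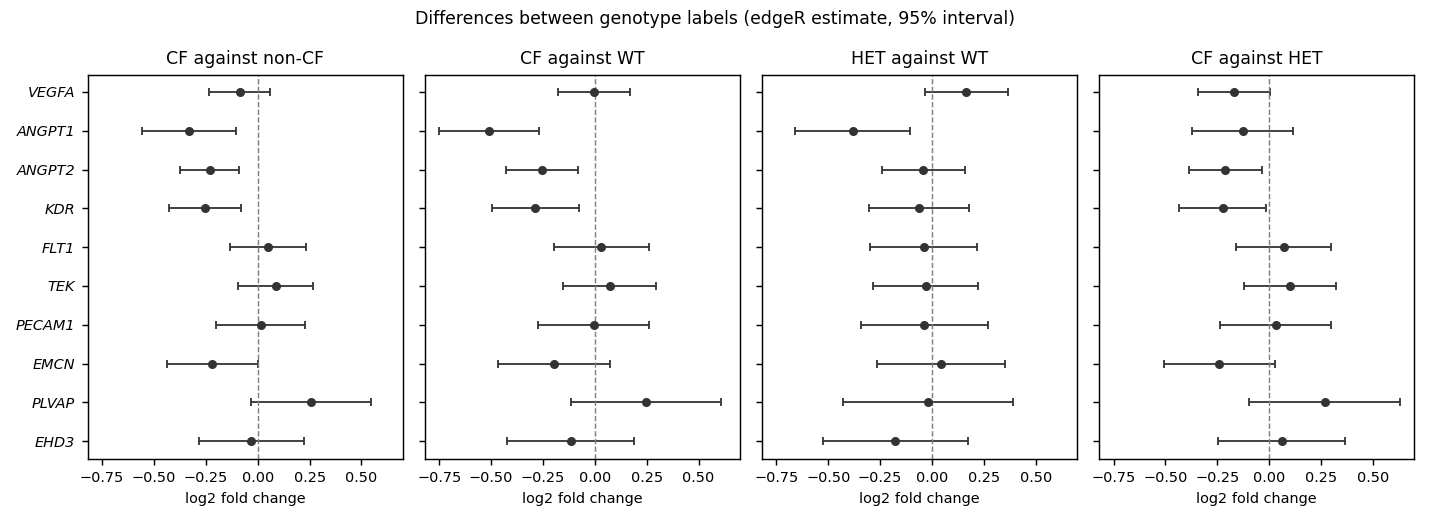
Log2 fold change (x axis) of the 10 genes in the 4 comparisons of labels; points are edgeR estimates and bars 95% intervals. ANGPT1 lies farthest from 0 for CF against WT (-0.51) and HET against WT (-0.38). Only ANGPT1, ANGPT2 and KDR have intervals that exclude 0 in some comparison, and those of the other genes include 0 in each.

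The earlier- and later-numbered pigs gave different values for KDR. In the later-numbered pigs, KDR lay between 155 and 213 CPM in the 5 CF libraries and between 220 and 271 in the 5 non-CF libraries, and the labels did not overlap (2.39% of all tested genes had CF below non-CF without overlap in these pigs). In the earlier-numbered pigs it lay between 171 and 247 CPM in 6 CF libraries and between 170 and 254 in 7 non-CF libraries. The log2 fold change was -0.48 in the later-numbered pigs (SE 0.099, adjusted p = 0.0240, where 2.27% of all genes passed the limit) and -0.07 in the earlier-numbered pigs (SE 0.10, adjusted p = 0.898, where 0% passed it). The difference between both effects was -0.42 (SE 0.15), with an unadjusted p of 0.0109 and an adjusted p of 0.319, so that it did not pass the test over all genes.

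The log2 fold change of TEK in CF against non-CF was 0.25 in the earlier-numbered pigs (SE 0.097, adjusted p = 0.434) and -0.13 in the later-numbered pigs (SE 0.085, adjusted p = 0.487). Those values came from CF libraries between 62.1 and 94.7 CPM in the first set and between 55.1 and 62.3 in the second, while non-CF libraries kept to 56.1 to 77.2 and 56.1 to 73.0. For VEGFA the log2 fold change was 0.04 (SE 0.096) in the earlier- and -0.24 (SE 0.091) in the later-numbered pigs, and for EMCN -0.03 (SE 0.14) and -0.43 (SE 0.11, adjusted p = 0.0638). The unadjusted p of the difference was under 0.05 for KDR, TEK and VEGFA, 3 of 10 genes beside 10.1% of all tested genes, and none had an adjusted p under 0.05, beside 0.0191%. ANGPT1 (-0.26 and -0.40), ANGPT2 (-0.14 and -0.34) and PLVAP (0.22 and 0.35) kept their sign in both sets. For CF against HET in the later-numbered pigs, ANGPT2 had an adjusted p of 0.0456, where 2.56% of all genes passed.

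**Figure D3:**
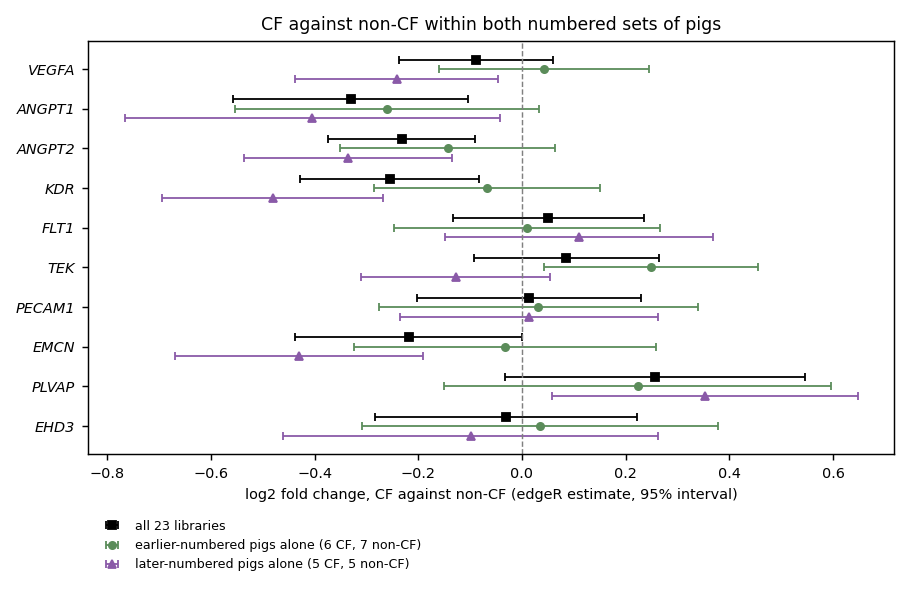
Log2 fold change of CF against non-CF (x axis) for each gene in all 23 libraries, in the earlier-numbered pigs and in the later-numbered pigs; points are edgeR estimates and bars 95% intervals. KDR is near 0 in the earlier-numbered pigs (-0.07) and -0.48 in the later-numbered pigs, while PECAM1 is 0.03 and 0.01.

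The 10 genes have 32 annotated transcripts, all of which matched the annotation, and 28 passed the filter. None had an adjusted p under 0.05 for CF against non-CF, beside 0.00405% of all 49377 transcripts tested, and 4 had an unadjusted p under 0.05, beside 7.61%. Those 4 were X2 of KDR (log2 fold change -0.31, SE 0.11, adjusted p = 0.393), both transcripts of ANGPT2 (-0.23 and -0.25) and X2 of ANGPT1 (-0.69, SE 0.29). The division of reads between transcripts is kallisto's estimate, for which no uncertainty was given, and some were unstable: X1 of PECAM1 ranged from 0 to 2028 estimated counts, and X3 of FLT1 from 0.012 to 1937.

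The VEGFA transcript with the heparin-binding exon shown above made up 33.3% ± 2.87 of VEGFA's TPM in CF (SD, n = 11), 35.0% ± 3.13 in HET (SD, n = 6) and 35.5% ± 1.75 in WT (SD, n = 6). It held between 394 and 814 estimated counts per library, against 5512 to 9489 for X1. Its annotated sequence is 582 bases with almost no noncoding ends, whereas X1 is 3069 bases long, so reads from the noncoding ends of every VEGFA form fall to X1 and the share is not a ratio of protein forms. The KDR transcript with the 12 extra bases took 41.7% ± 6.66 in CF (SD, n = 11), 37.2% ± 3.03 in HET (SD, n = 6) and 40.9% ± 2.70 in WT (SD, n = 6), and the highest shares were those of CF10 (54.0%) and CF8 (50.9%).

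The short FLT1 transcripts X4 and X5, which lack the exons of the membrane span and the kinase, took together 28.2% ± 7.26 of FLT1's TPM in CF (SD, n = 11), 30.4% ± 5.71 in HET (SD, n = 6) and 26.8% ± 4.42 in WT (SD, n = 6). CF1 had the lowest share, 16.7%, and CF2 the highest, 37.8%, so the spread within CF covered the other labels. The curated ANGPT2 transcript took 78.9% ± 1.81 in CF (SD, n = 11), 78.4% ± 1.72 in HET (SD, n = 6) and 78.7% ± 4.52 in WT (SD, n = 6), with an SD of 2.62 over the 23 libraries. PLVAP came almost wholly from X2, with 97.2% ± 1.27 of its TPM (SD, n = 23).

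**Figure D4:**
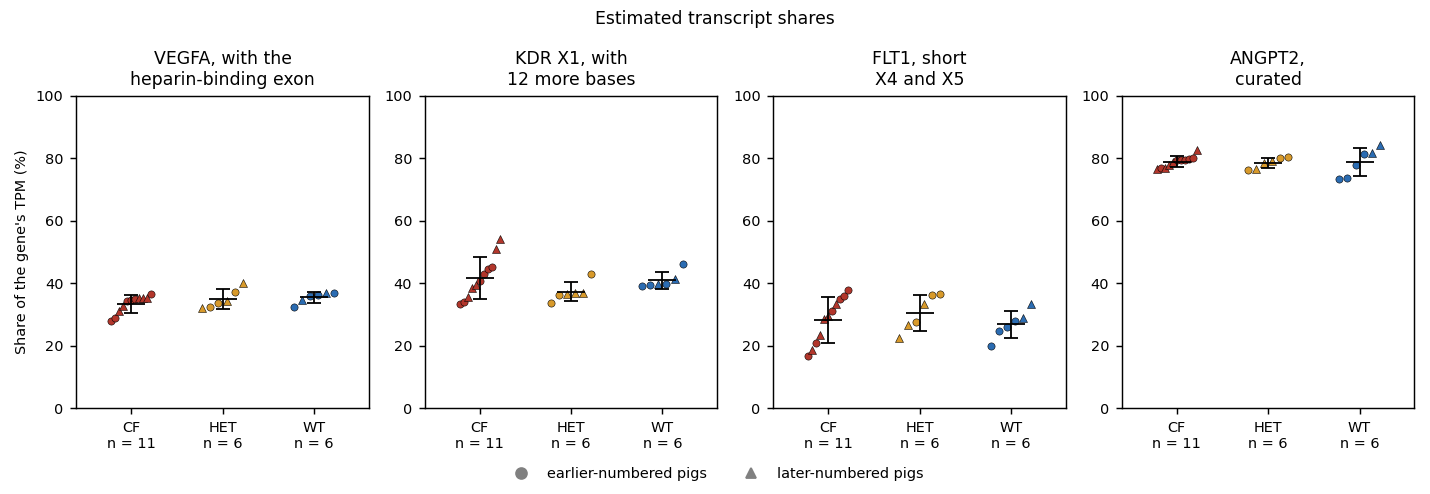
Share of each gene's TPM (y axis, 0 to 100%) in the named transcripts by genotype label; each point is a library, circles earlier- and triangles later-numbered pigs, and bars are the mean ± SD. The labels overlap in every panel, and the short FLT1 forms range within CF from 16.7% to 37.8%.

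The rest of the VEGF and angiopoietin pathway was read from 16 further genes. None had an adjusted p under 0.05 in any of the 4 comparisons. For CF against non-CF, 11 had a negative and 5 a positive log2 fold change, the median was -0.05, and 4 of 16 had an unadjusted p under 0.05 (25.0%, beside 13.7% of all genes). CF1 had the highest summed level of these genes, 232 TPM, and without it the median was -0.10, again with 11 negative and 5 positive values. The smallest p-values belonged to APLN, a peptide of endothelial tip cells, with 5.85 ± 1.85 CPM in CF (SD, n = 11) and 8.65 ± 2.69 in non-CF (SD, n = 12), a log2 fold change of -0.56 (SE 0.18, adjusted p = 0.131), and to its receptor APLNR, with 23.6 ± 6.05 and 32.1 ± 8.96 CPM, a log2 fold change of -0.44 (SE 0.15, adjusted p = 0.167). Among the other ligands, VEGFB had a median of 41.7 TPM, whereas VEGFC, VEGFD and PGF lay at 3.19, 1.71 and 2.77 TPM.

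Further endothelial genes are listed beside the 4 markers because a change in vessel content would touch them too. Of 16 pan-endothelial genes, 9 had a negative and 7 a positive log2 fold change for CF against non-CF (median -0.01), none was called, and the smallest p-values were those of ERG, an endothelial transcription factor (0.28, SE 0.086, adjusted p = 0.126), and ICAM2, an adhesion molecule (-0.25, SE 0.11, adjusted p = 0.302). Their summed level ranged from 214 to 273 TPM in CF, from 219 to 260 in HET and from 232 to 307 in WT. Of 6 glomerular endothelial genes, 3 were positive and 3 negative (median 0.03), with GATA5 (0.32, adjusted p = 0.313) and SEMA5A (0.23, adjusted p = 0.383) having the smallest p. Of 7 peritubular and arterial genes, 5 were positive (median 0.10), led by HEY1, a Notch target (0.30, adjusted p = 0.169), and DNASE1L3 (0.24, adjusted p = 0.454). Without CF1, 4 of these were positive and 3 negative (median 0.090), with HEY1 at 0.29 and DNASE1L3 at 0.16. Of 5 lymphatic genes, 4 were positive (median 0.22), with MMRN1 at 0.69 (SE 0.34, adjusted p = 0.368) and RELN at 0.22 (adjusted p = 0.637).

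Cells that make or receive these signals were described in the same way. No gene was called in any list. Of 8 mesangial and pericyte genes, 5 were positive (median 0.12), with RGS5 at 0.25 (adjusted p = 0.156) and NOTCH3 at 0.33 (adjusted p = 0.381). Their summed level had a median of 264 TPM in CF (219 to 504), 260 in HET (245 to 270) and 340 in WT (259 to 451). What part this played in the values of ANGPT1 was not tested. Without CF1, which had the highest sum of this list, 4 were positive and 4 negative (median 0.046), with RGS5 at 0.19 and NOTCH3 at 0.21. Of 11 podocyte genes, 7 were positive (median 0.04), with SYNPO at 0.49 (adjusted p = 0.189). Of 15 genes of the hypoxia response, of which VEGFA is a classic target, 10 were positive (median 0.065), and the smallest p-values were those of P4HA1 (-0.23, adjusted p = 0.240) and HIF1A (-0.14, adjusted p = 0.391). Of 8 tubule genes, 4 were positive and 4 negative (median -0.05), with CALB1 at -1.40 (SE 0.34, adjusted p = 0.0636) and SLC12A3 at -0.64 (SE 0.17, adjusted p = 0.0843), both markers of the distal convoluted tubule. Of 7 blood and immune genes, 3 were positive (median -0.11), with PTPRC at -0.32, and all 7 immediate early genes were positive (median 0.77), with JUN at 1.09 (adjusted p = 0.237) and ATF3 at 0.78 (adjusted p = 0.336). CF1 had the highest sum of both lists. Without CF1, 2 of the 7 immediate early genes were positive and 5 negative (median -0.29), with JUN at 0.055 (SE 0.17) and ATF3 at 0.081 (SE 0.20), so the positive values rested on that library. The fit without CF1 still held WT12, the non-CF library with the highest immediate early sum (395 TPM). Median sums were 70.7 TPM in CF and 62.4 TPM in non-CF, so the negative median does not describe a typical CF library. Without it, 1 of the 7 blood and immune genes was positive (median -0.20), and the median was -0.050 for the pan-endothelial, 0.0029 for the glomerular endothelial and -0.12 for the tubule genes.

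Correlations between the 10 genes across pigs were computed within each numbered set over CF and non-CF pigs together, as 45 pairs of log2 CPM. In the earlier-numbered pigs (n = 13), 11 pairs had an unadjusted permutation p under 0.05, and in the later-numbered pigs (n = 10) 8 pairs had, but none had an adjusted p under 0.05 over the 45 pairs in either set. KDR with EMCN and FLT1 with PLVAP were the pairs with an unadjusted p of Pearson's r under 0.05 in both sets, each positive in both. For KDR with EMCN, Pearson's r was 0.60 in the earlier set (Spearman's rho 0.65, permutation p = 0.0284 and 0.0184, adjusted p = 0.165 and 0.276) and 0.76 in the later set (rho 0.78, permutation p = 0.0146 and 0.0105, adjusted p = 0.206 and 0.118). Leaving out the 2 pigs farthest from the median of KDR gave r = 0.37 and 0.75. With the means of CF and of non-CF taken off first, r was 0.60 and 0.26, so the later value rested largely on the difference between the labels. For FLT1 with PLVAP, r was 0.65 (rho 0.23, permutation p = 0.0404 and 0.461, adjusted p = 0.165 and 0.732) and 0.84 (rho 0.83, permutation p = 0.00185 and 0.00457, adjusted p = 0.0628 and 0.112), and without the 2 farthest pigs 0.29 and 0.81, so the earlier set's value rested on those pigs. With the label means taken off, r was 0.68 and 0.91. VEGFA with EHD3 was negative in the earlier set (r = -0.72) and 0.08 in the later set. The sign of r was the same in both sets for 34 of 45 pairs.

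**Figure D5:**
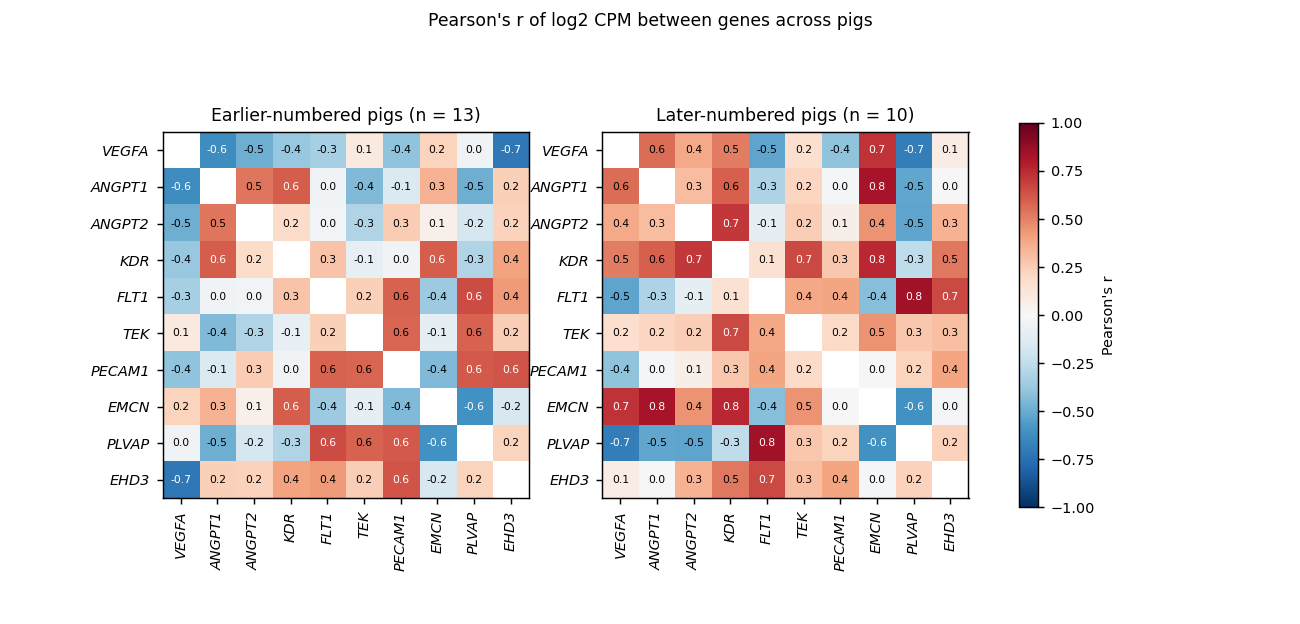
Pearson's r of log2 CPM (colour scale from -1 to 1, value in each cell) between the 10 genes across the earlier-numbered (left) and later-numbered pigs (right), CF and non-CF together. KDR and EMCN are positive in both sets (0.60 and 0.76, or 0.60 and 0.26 with the label means taken off), as are FLT1 and PLVAP (0.65 and 0.84), while no pair passed adjustment over 45 pairs.

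The genes most alike in pattern to 5 of the members were found among 18124 genes with a mean of at least 1 CPM, as those with the highest value of the lower r of both sets (n = 13 and n = 10), given without a test. For VEGFA they were LOC106504420 (r = 0.85 and 0.95), LOC102167589 (0.74 and 0.79) and ADGRG6 (0.78 and 0.70). LOC106504420, a long noncoding RNA, is annotated on chromosome 7 from 38717189 to 38746368 on VEGFA's strand, with 24 bases between its end and the start of VEGFA's gene model, which the annotation marks as partial. For KDR they were UTP20 (0.85 and 0.83), LOC100513542 (0.82 and 0.83) and PSMB3 (0.81 and 0.79), and for EHD3 they were SCNN1G (0.76 and 0.79), NRP1 (0.65 and 0.72) and TSHZ1 (0.72 and 0.64). For PLVAP they were SH3BP5 (0.85 and 0.89), ERRFI1 (0.84 and 0.84) and TSC22D1 (0.82 and 0.83). In the earlier set these values rested in part on CF1, without which r was 0.54, 0.45 and 0.56 (n = 12). For ANGPT2 they were TPX2 (0.86 and 0.86), NCAPG (0.85 and 0.89) and KIF11 (0.87 and 0.82).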

How the data were processed

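Stranded, ribosomal RNA-depleted libraries were made from the kidney cortex of 23 newborn pigs. Per the labels and the study's methods, the authors pseudoaligned reads to RefSeq transcripts of Sscrofa11.1 with kallisto and deposited estimated counts and TPM per transcript. Here estimated counts were summed per symbol, rounded, filtered with filterByExpr on CF and non-CF, scaled by TMM to CPM and tested in edgeR by quasi-likelihood, with p-values adjusted by Benjamini-Hochberg over 20921 genes. CF against non-CF used 2 groups, and the other comparisons 3 labels in 1 fit. The numbered sets were compared by an interaction term. Log2 CPM used a prior count of 2, and correlations 100000 permutations. Pigs are separate animals, and no litter is given. The members and lists were chosen with earlier results of these data known, and the genes named from a list were those with the 2 smallest p-values for CF against non-CF, since none was called. Most alike genes were taken for VEGFA, KDR, EHD3, PLVAP and ANGPT2. The alternatives tried were RLE and upper-quartile scaling, other filters, counts rebuilt from TPM, DESeq2, limma-voom, the exact Mann-Whitney U test, the numbered set as a term, each set alone and leaving out each pig. The filter by 3 labels, and the gene lists and most alike genes without CF1, and correlations with label means taken off, were added after seeing the data. Tests were checked on simulated data. PDGFB and NR4A1, listed among pericyte and immediate early genes, were not analysed here. Some genes of the marker lists are counted in their list and not reported by name here.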

Additional observations from a re-analysis of the deposited data

How the results depend on the processing

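No paired analysis was possible because the labels give no litter. The tests treated pigs as independent, which could not be checked, since littermates may lie within or across labels. Over the 10 genes, the count with an adjusted p under 0.05 moved from 0 to 1 for CF against non-CF with DESeq2 (ANGPT2) and in the later-numbered pigs alone (KDR), for CF against WT with upper-quartile scaling, a filter of 1 CPM in 6 libraries, DESeq2 and the numbered set as a term (ANGPT1 each time), and for CF against HET in the later-numbered pigs alone (ANGPT2, adjusted p = 0.0456). Leaving out each pig gave 0 to 1 genes for CF against WT and 0 in the other comparisons. Over all genes, 73 were called for CF against non-CF by edgeR, 515 by DESeq2, 46 by limma-voom, 0 in the earlier-numbered and 473 in the later-numbered pigs, and 17 to 203 when a pig was left out (without HET21 and without CF4). For CF against WT the counts were 73 by edgeR and 576 by DESeq2, and 20 to 203 when a pig was left out (without WT12 and without CF4). Under settings other than leaving out a pig, 433 single-gene values kept direction and side of the limit, 30 reversed and 7 passed the limit, and of 920 values with a pig left out, 865 did. In the 22 results that reversed, the log2 fold change given in the text above or computed with the same fit was at most 0.20 in size, and the smallest adjusted p of a reversed value was 0.431. The cause of the changes was not tested.

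Log2 fold changes that reversed were as follows. In the earlier-numbered pigs alone they were 0.042 for VEGFA and 0.035 for EHD3 (CF against non-CF), 0.18 for VEGFA, 0.033 for EMCN and 0.0025 for PECAM1 (CF against WT), and 0.014 for FLT1, 0.19 for PLVAP and 0.080 for TEK (HET against WT). In the later-numbered pigs alone they were -0.13 for TEK (CF against non-CF), 0.073 for PECAM1 and -0.23 for TEK (CF against WT), -0.067 for VEGFA, 0.016 for EHD3, -0.20 for EMCN, 0.099 for PECAM1 and 0.21 for ANGPT2 (HET against WT), and -0.11 for EHD3, -0.026 for PECAM1 and -0.059 for TEK (CF against HET). With upper-quartile scaling PECAM1 was -0.012 (CF against non-CF) and FLT1 -0.010 (CF against WT). For CF against WT, VEGFA was 0.0039 with median-of-ratios scaling and DESeq2, 0.0030 with the 1 CPM filter and 0.011 with limma-voom, and PECAM1 was 1.58e-05, 3.43e-05 and 0.019 with median-of-ratios scaling, DESeq2 and the set term. For HET against WT, FLT1 was 0.0056 with counts rebuilt from TPM and PLVAP 0.012 with the set term.

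With a pig left out, values that crossed 0 ranged, for CF against non-CF, from -0.10 to 0.0096 for EHD3, -0.016 to 0.083 for FLT1 and -0.057 to 0.060 for PECAM1. For CF against WT they ranged from -0.049 to 0.064 for VEGFA, -0.036 to 0.073 for FLT1 and -0.075 to 0.094 for PECAM1. For CF against HET they ranged from -0.012 to 0.10 for EHD3 and -0.038 to 0.11 for PECAM1. For HET against WT they ranged from -0.084 to 0.014 for ANGPT2, -0.026 to 0.14 for EMCN, -0.071 to 0.0034 for FLT1, -0.11 to 0.0055 for KDR, -0.12 to 0.062 for PECAM1, -0.11 to 0.064 for PLVAP and -0.091 to 0.0078 for TEK.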

Other observations

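In the later-numbered pigs, the level of FLT1 per length stood to that of KDR as 0.427 to 0.496 in the 5 CF libraries and as 0.298 to 0.356 in the 5 non-CF libraries. In the earlier-numbered pigs the labels overlapped, with 0.415 ± 0.0835 in CF (SD, n = 6) and 0.392 ± 0.0536 in non-CF (SD, n = 7). The ratio was formed after its genes' values had been seen and was not tested. KDR alone also did not overlap between CF and non-CF in the later-numbered pigs, where 2.39% of all tested genes had CF below non-CF without overlap. The ratio is thus not a separate observation, and no share over other ratios was computed. On the scale of log2(TPM + 0.1), 9 of the 45 pairs of genes had an adjusted permutation p of Pearson's r under 0.05 in the later-numbered pigs and 0 in the earlier-numbered pigs. By Spearman's rho the counts were 0 and 1, so that they depended on the coefficient. On log2 CPM no pair had by either coefficient in either set.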
